A study of Mus musculus with 12 samples.

Results

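The genes described here encode a copper chaperone and proteins that carry copper, organic cations or anions across cell membranes, all linked to cisplatin movement. They are the copper transporter Slc31a1 (CTR1), its relative Slc31a2 (CTR2), the copper-transporting ATPases Atp7a and Atp7b, the copper chaperone Atox1, the organic cation carriers Slc22a3 (OCT3) and Slc47a1 (MATE1), the efflux pump Abcc1 (MRP1) and the subunits Lrrc8a and Lrrc8d of the volume-regulated anion channel. They were chosen by gene symbol as a list of 10 genes out of the 55885 in the table. All 10 were listed in the 12 hearts, and 9 passed the filter on low values, which asked for a TPM (the share of transcripts, scaled for transcript length and to a fixed total per heart) of at least 1 in at least 3 hearts and left 13815 genes for testing.

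The hearts came from male mice, 8 weeks old at the start, C57BL/6 by the labels and C57BL/6J by the study's methods. The 4 groups of 3 hearts were wild-type mice without cisplatin (Saline), wild-type mice with cisplatin (CDDP), STING-/- mice without cisplatin, and STING-/-+CDDP. Injections of 6 mg/kg cisplatin into the peritoneum were given 3 times, on days 1, 8 and 15, and hearts were taken a week after the last injection. The values of CDDP and STING-/-+CDDP hearts are thus from tissue a week past exposure. Hearts without cisplatin are untreated by their labels, whereas the study's methods describe saline. The STING-/- mice are labelled as knockouts of STING, the adaptor that signals from cytosolic DNA, and were bought from another supplier than the wild-type mice.

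Copper enters cells largely through CTR1, is handed on by ATOX1, and leaves through ATP7A or, mainly in liver, ATP7B. Platinum drugs are thought to use parts of this route, and also organic cation carriers of the OCT and MATE families, channels built from LRRC8A with LRRC8D, and glutathione-linked export by MRP1. OCT3 is the organic cation transporter best known from the heart, while MATE1 is best known for exporting cations in kidney and liver.

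Sting1 itself ranged from 6.50 to 12.28 TPM in Saline hearts, 5.62 to 22.11 in CDDP hearts, 2.87 to 5.96 in STING-/- hearts and 3.37 to 4.67 in STING-/-+CDDP hearts, so transcripts of the gene were present in the knockouts, and the ranges of CDDP and STING-/- overlapped. The labelled tissue was borne out by its markers: the summed TPM of 6 cardiomyocyte genes lay between 21571.9 and 44506.4. Markers of kidney tubule summed to at most 0.96 TPM in any heart and those of liver to at most 11.38. Atrial markers varied from 310.19 to 38938.9 TPM among Saline hearts alone. The read depth behind the TPM is unknown. In whole-heart RNA, fewer cells of a type and less RNA per cell cannot be told apart.

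All 10 are protein-coding genes, and their positions are those of GENCODE M21 on GRCm38. Slc31a2 (chr4:62262562-62298411) and Slc31a1 (chr4:62360727-62391769) lie on the plus strand, as do Atp7a (chrX:106027276-106124926), Abcc1 (chr16:14361558-14475737), Lrrc8a (chr2:30237715-30263790) and Lrrc8d (chr5:105699969-105832436). Atp7b (chr8:21992785-22060305), Atox1 (chr11:55446641-55461239), Slc22a3 (chr17:12418960-12507704) and Slc47a1 (chr11:61343401-61378345) lie on the minus strand. Slc22a3 shares 420 exonic bases with Plg on the opposite strand, and Plg was at most 0.20 TPM in any heart. Whether reads were counted by strand is not given in the sources used here.

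The promoter windows of the genes that the results turn on are given first. Each is the reference sequence from RefSeq (GRCm38.p6), 5′ to 3′ on the gene's strand, from 250 bases before to 50 bases after an annotated start. Capitals mark the core of the metal response element, the site through which the factor MTF1 acts on metallothionein genes, searched on both strands as TGCACNC or TGCGCNC, with overlapping matches counted. Slc22a3 (chr17:12507655-12507954, minus strand) is shown as the one gene that passed a test, Atp7a (chrX:106026974-106027273, plus strand) and the second start of Lrrc8d (chr5:105700560-105700859, plus strand) as the windows of the list with more than 1 core, and Mt1 (chr8:94178839-94179138, plus strand) as a metallothionein gene for comparison.
Slc22a3: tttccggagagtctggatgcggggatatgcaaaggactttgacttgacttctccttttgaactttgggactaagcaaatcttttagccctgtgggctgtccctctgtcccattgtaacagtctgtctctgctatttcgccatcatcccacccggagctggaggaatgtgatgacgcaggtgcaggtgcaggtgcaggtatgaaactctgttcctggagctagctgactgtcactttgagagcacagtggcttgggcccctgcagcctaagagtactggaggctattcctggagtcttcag
Atp7a: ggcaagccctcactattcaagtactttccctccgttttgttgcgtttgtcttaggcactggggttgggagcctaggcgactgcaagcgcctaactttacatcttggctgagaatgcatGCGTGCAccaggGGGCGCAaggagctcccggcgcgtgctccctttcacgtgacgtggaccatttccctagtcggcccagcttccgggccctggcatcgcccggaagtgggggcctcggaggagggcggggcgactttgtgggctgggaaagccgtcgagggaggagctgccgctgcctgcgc
Lrrc8d: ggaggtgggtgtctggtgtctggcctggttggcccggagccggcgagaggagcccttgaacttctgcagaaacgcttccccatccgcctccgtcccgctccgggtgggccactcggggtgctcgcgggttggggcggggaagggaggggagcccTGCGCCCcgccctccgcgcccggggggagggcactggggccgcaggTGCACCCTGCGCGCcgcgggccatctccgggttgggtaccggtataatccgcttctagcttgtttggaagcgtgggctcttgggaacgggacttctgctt
Mt1: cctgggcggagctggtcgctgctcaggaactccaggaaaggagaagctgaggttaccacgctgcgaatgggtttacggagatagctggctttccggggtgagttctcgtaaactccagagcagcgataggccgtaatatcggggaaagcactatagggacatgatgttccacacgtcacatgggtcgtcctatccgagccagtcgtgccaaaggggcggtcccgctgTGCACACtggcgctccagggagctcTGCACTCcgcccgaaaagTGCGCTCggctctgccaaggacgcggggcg

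Windows were found for 8 of the 10 genes, 9 windows in all because Lrrc8d has 2 annotated starts. Slc47a1 and Abcc1 had none in the table used. A metal response element core was present in 4 of the 9 windows, with 1 core for Slc31a2, 2 for Atp7a, 1 for Atp7b and 3 for the second start of Lrrc8d, against 25.7% of 32851 windows of the same length over all genes. The window of Mt1 held 3 cores and that of Mt2 held 4. The windows of Slc31a1, Atox1, Slc22a3, Lrrc8a and the first start of Lrrc8d held none. A GC box (GGGCGG, either strand) stood in 6 of the 9 windows and in 35.7% of all windows, and an AP-1 site (TGANTCA) in 0 of the 9 and in 7.81% of all. The window of Slc22a3 held none of the 4 motifs. These matches describe letters and were not tested for binding.

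The heart expressed these genes at very different levels, and TPM, being scaled to transcript length, allows them to be set side by side. Atox1 was the highest, with a median of 95.7 TPM over the 12 hearts (range 75.50 to 129.31), followed by Lrrc8d at 25.9, Slc47a1 at 22.9, Lrrc8a at 18.4, Slc31a2 at 14.5, Slc31a1 at 8.80, Abcc1 at 5.11, Atp7a at 2.71 and Slc22a3 at 2.51. Atp7b, the liver copper ATPase, had a median of 0.01 TPM and never exceeded 0.03. Along this order, Atox1 lay above Lrrc8d in 12 of 12 hearts, Slc31a2 above Slc31a1 in 11, Slc31a1 above Abcc1 in 12 and Abcc1 above Atp7a in 12. Slc47a1 exceeded Lrrc8a in 10 hearts and Lrrc8a exceeded Slc31a2 in 11. The pairs that did not keep their order were Lrrc8d over Slc47a1, in 6 of 12 hearts, and Atp7a over Slc22a3, in 7 of 12. The plot of TPM by heart shows these levels.

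**Figure D1:**
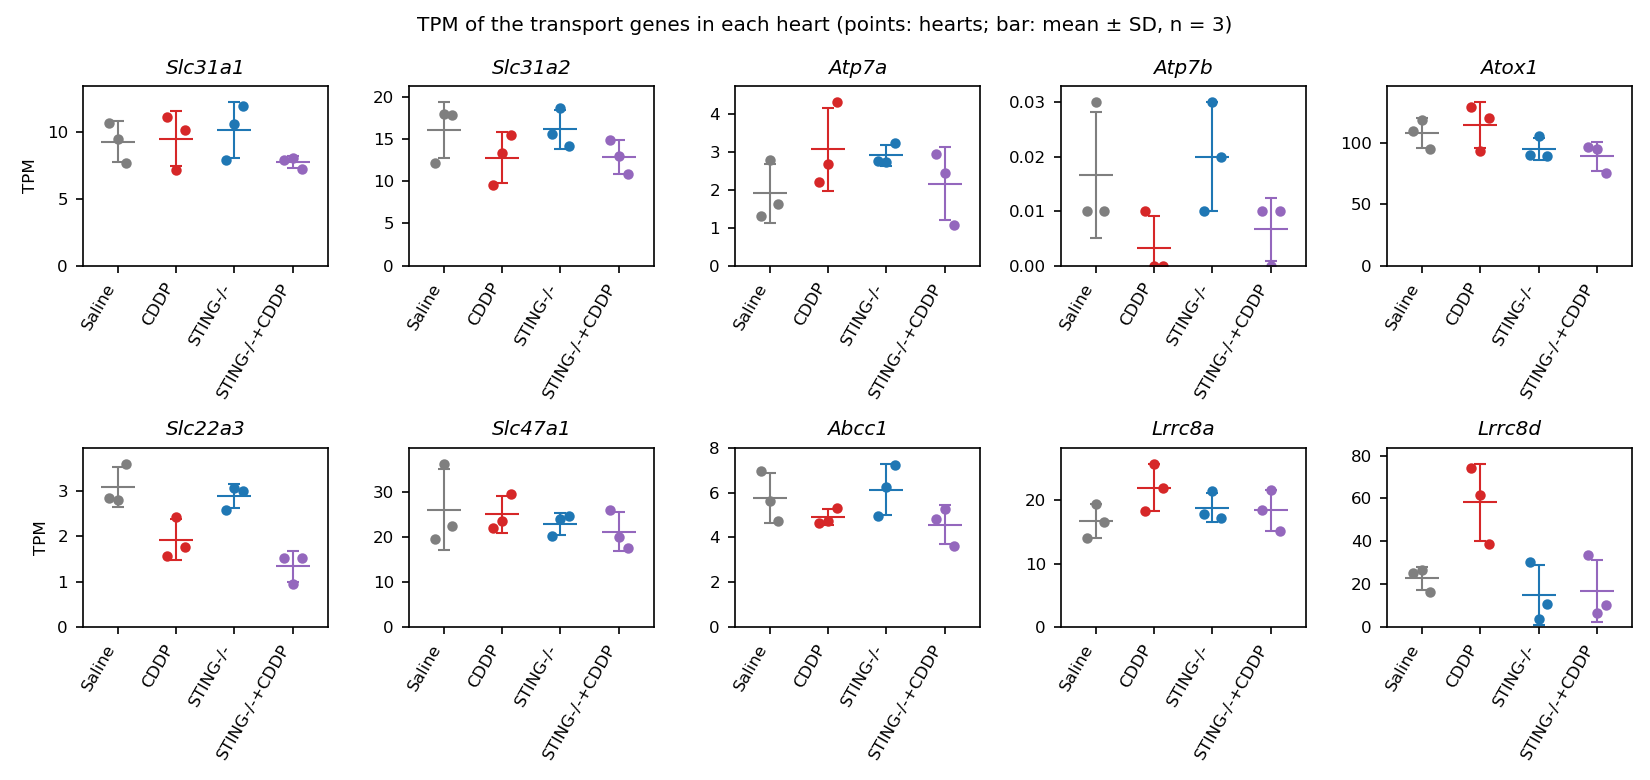
TPM of the 10 genes (vertical axis, linear from 0, scaled separately for each gene) in the 12 hearts by group, with points for hearts and bars for the mean ± SD of 3. Slc22a3 was 2.58 to 3.59 TPM in the hearts without cisplatin and 0.95 to 2.43 in those with it, and Lrrc8d spread from 3.65 to 74.13 TPM.

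Of the transport genes, the organic cation carrier Slc22a3 fell with cisplatin when the effect was averaged over both genotypes, and no gene passed the test within either genotype alone. In the comparison of CDDP with Saline, 0 of the 9 tested genes passed an adjusted p of 0.05 by limma, while 18.9% of all tested genes did. The count at an unadjusted p under 0.05 was 1 of 9, Slc22a3, against 4689 of the 13815 tested genes. For 7 of the 9 genes the 95% interval of the log2 fold change lay between -1 and 1, in this comparison and in STING-/-+CDDP against STING-/-, so smaller changes remain possible. The plot of differences shows the intervals.

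Slc22a3, which carries monoamines and other organic cations, measured 2.85, 2.79 and 3.59 TPM in Saline hearts and 1.57, 2.43 and 1.76 in CDDP hearts. In STING-/- hearts it measured 2.58, 3.07 and 2.99 TPM, and in STING-/-+CDDP hearts 1.53, 0.95 and 1.53. All 3 treated hearts were lower than all 3 untreated ones in each genotype, and the 6 treated hearts did not overlap the 6 others. The log2 fold change on the log2(TPM + 1) scale was -0.49 (SE 0.18, limma adjusted p = 0.0806) in wild-type hearts. In STING-/- hearts it was -0.74 (SE 0.18, limma adjusted p = 0.0827). Neither passed alone, and an exact permutation test of 3 against 3 hearts gave p = 0.10 in each genotype, the smallest it allows.

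Averaging the cisplatin effect over both genotypes, a contrast added after the data were seen, gave Slc22a3 a log2 fold change of -0.61 (SE 0.13, 95% interval -0.89 to -0.33, limma adjusted p = 0.00712). The mean was 2.98 ± 0.34 TPM in the 6 hearts without cisplatin and 1.63 ± 0.48 TPM in the 6 hearts with it (SD, n = 6 each), which is 45.3% lower. An exact permutation of treatment within each genotype, two-sided and unadjusted, gave p = 0.005, the smallest that its 400 arrangements allow. The separation of treated from untreated hearts in each genotype, already described, fixes this p, so it is no further support. Slc22a3 was the 1 gene called among the 9 in this contrast, where 19.8% of all tested genes were called, so the count itself is no more than the background. Over all tested genes, 8.30% had 6 treated hearts that did not overlap the other 6. The difference between the changes in the 2 genotypes was -0.25 (SE 0.25, limma adjusted p = 0.726), with an interval of -0.81 to 0.30.

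Some markers of several cell types were lower with cisplatin too. In the averaged contrast, where Slc22a3 passed, 4 red blood cell, 3 macrophage, 3 endothelial, 2 pericyte, 2 fibroblast and 1 smooth muscle markers were called lower. Of the cardiomyocyte markers 1 was called higher and 1 lower, and of the liver markers 1 was called higher. Of the atrial, neutrophil and fat markers 0 passed. Over all 13815 tested genes, 1734 were called lower there. The comparisons within each genotype follow. Of the 4 genes in each list, 3 macrophage, 3 endothelial, 2 pericyte and 2 fibroblast markers were lower in CDDP than in Saline hearts by the test, against 10.4% of all tested genes called lower, and 0 of any of these lists passed in STING-/-+CDDP against STING-/-. The summed macrophage markers were 230.89 to 304.43 TPM in Saline and 60.41 to 141.81 in CDDP hearts, and 214.90 to 326.74 in STING-/- and 88.63 to 188.15 in STING-/-+CDDP hearts, without overlap in either genotype. The summed pericyte markers were 212.85 to 362.06 TPM in Saline, 104.56 to 179.42 in CDDP, 232.06 to 350.82 in STING-/- and 202.75 to 230.37 in STING-/-+CDDP hearts. Endothelial sums were 346.53 to 439.36 TPM in Saline and 250.15 to 309.29 in CDDP hearts, whereas STING-/- (241.92 to 340.91) and STING-/-+CDDP hearts (227.61 to 353.96) overlapped. Fibroblast sums overlapped, at 635.81 to 1604.06 TPM in Saline and 951.65 to 2030.83 in CDDP hearts. Both ends of that range were higher in CDDP hearts, although 2 of the markers were called lower. They were 818.61 to 1188.09 in STING-/- and 622.85 to 1446.28 in STING-/-+CDDP hearts. Cardiomyocyte sums overlapped too, at 30307.7 to 40320.5 TPM in Saline and 21571.9 to 33131.5 in CDDP hearts. In STING-/- hearts they were 30007.1 to 44506.4 and in STING-/-+CDDP hearts 28254.7 to 33670. All 4 red blood cell markers were lower in CDDP hearts as well, summing to 4133.25 to 9289.08 TPM in Saline and 41.95 to 1270.36 in CDDP hearts, whereas STING-/- (263.18 to 1461.54) and STING-/-+CDDP hearts (81.53 to 309.99) overlapped and 0 of 4 passed. Neutrophil sums were 6.19 to 31.04 TPM in Saline, 25.68 to 1081.6 in CDDP, 3.48 to 82.95 in STING-/- and 36.01 to 46.87 in STING-/-+CDDP hearts, with 0 of 3 tested markers passing. The part of these markers in the fall of Slc22a3 was not tested. The tested genes whose log2 values followed Slc22a3 most closely over the 12 hearts were BC052040 (Pearson r 0.912), Ccl5 (0.907) and Gm10053 (0.890), given as a description.

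**Figure D2:**
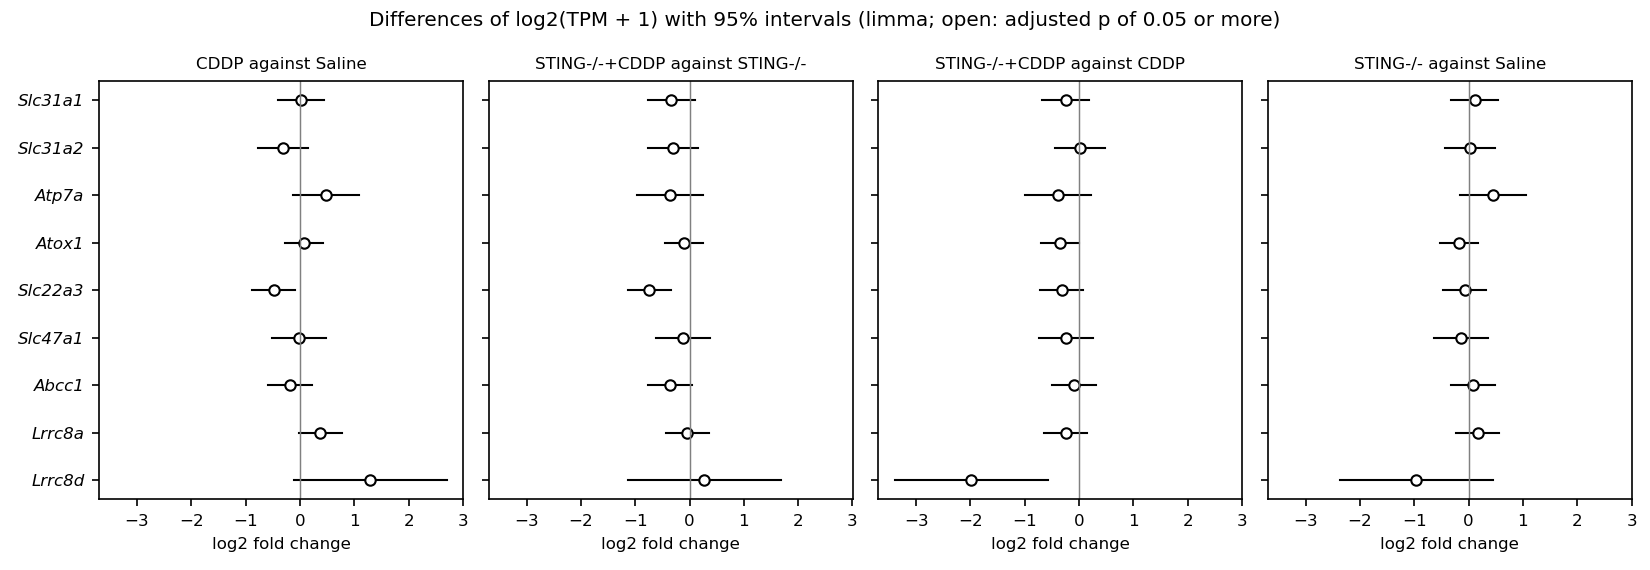
Log2 fold changes on the log2(TPM + 1) scale (horizontal axis) of the 9 tested genes in the 4 comparisons between groups, with 95% intervals from limma; open circles mark an adjusted p of 0.05 or more. All circles are open, and the intervals of Lrrc8d are the widest.

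The copper genes showed no change with cisplatin past the threshold. Slc31a1, the high-affinity importer, measured 10.70, 9.52 and 7.68 TPM in Saline, 11.15, 7.19 and 10.19 in CDDP, 7.90, 10.66 and 11.97 in STING-/- and 7.95, 8.07 and 7.25 in STING-/-+CDDP hearts. The groups overlapped, and the log2 fold change with cisplatin was 0.02 in wild-type hearts (interval -0.41 to 0.45, limma adjusted p = 0.956) and -0.34 in STING-/- hearts (-0.77 to 0.09, limma adjusted p = 0.495). Slc31a2, whose protein limits copper and platinum entry through CTR1 in cultured cells, measured 12.17, 17.96 and 17.87 TPM in Saline and 9.57, 13.35 and 15.43 in CDDP hearts, a log2 fold change of -0.31 (limma adjusted p = 0.335). It was 15.54, 18.70 and 14.13 TPM in STING-/- and 14.84, 12.93 and 10.83 in STING-/-+CDDP hearts, again -0.31 (limma adjusted p = 0.571). The means of treated hearts were lower in both genotypes, but the hearts overlapped. Slc31a2 and Slc31a1 are neighbours on chromosome 4, 62316 bases apart.

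Atp7a, the ATPase that exports copper, was 1.32, 2.79 and 1.62 TPM in Saline and 2.20, 2.68 and 4.30 in CDDP hearts, a log2 fold change of 0.48 (SE 0.28, limma adjusted p = 0.253). In STING-/- hearts it was 2.76, 2.73 and 3.22 TPM and in STING-/-+CDDP hearts 2.94, 2.44 and 1.08, a log2 fold change of -0.36 (limma adjusted p = 0.625). The fitted direction was opposite in the 2 genotypes, and the interaction of -0.84 (SE 0.39, limma adjusted p = 0.440) did not pass. Atp7b was at or below 0.03 TPM in all 12 hearts and was not fitted. Atox1, the chaperone that hands copper to both ATPases, measured 109.72, 118.79 and 94.60 TPM in Saline, 129.31, 93.49 and 120.14 in CDDP, 90.29, 105.67 and 89.41 in STING-/- and 96.67, 94.72 and 75.50 in STING-/-+CDDP hearts. With cisplatin the log2 fold change was 0.08 (limma adjusted p = 0.770) in wild-type and -0.10 (limma adjusted p = 0.827) in STING-/- hearts.

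The efflux carriers overlapped between groups as well. Slc47a1 was 19.58, 36.18 and 22.41 TPM in Saline, 21.87, 23.48 and 29.55 in CDDP, 20.14, 23.94 and 24.69 in STING-/- and 25.89, 20.04 and 17.52 in STING-/-+CDDP hearts, with log2 fold changes with cisplatin of -0.02 and -0.12. Abcc1, which exports glutathione conjugates, was 6.95, 5.64 and 4.72 TPM in Saline and 4.66, 4.75 and 5.31 in CDDP hearts, and 4.94, 6.24 and 7.22 in STING-/- and 4.81, 5.28 and 3.61 in STING-/-+CDDP hearts. Its log2 fold changes were -0.19 (limma adjusted p = 0.524) and -0.36 (limma adjusted p = 0.439), and the averaged effect of -0.27 did not pass (interval -0.56 to 0.02, limma adjusted p = 0.172).

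The 2 anion channel subunits differed in how reproducible they were. Lrrc8a, the subunit every such channel needs, measured 14.13, 19.51 and 16.59 TPM in Saline and 18.37, 25.78 and 21.90 in CDDP hearts, a log2 fold change of 0.37 (SE 0.18, limma adjusted p = 0.172). With each heart weighted by its quality (limma arrayWeights) the value was 0.56 and passed (adjusted p = 0.0483). The weighted fit called 2939 of the 13815 tested genes in this comparison. In STING-/- hearts Lrrc8a was 17.88, 21.56 and 17.23 TPM, and in STING-/-+CDDP hearts 18.42, 21.70 and 15.23. Lrrc8a shares 2853 exonic bases on the same strand with Gm28035, annotated as a separate protein-coding gene, so reads could be divided between them by the authors' estimation. Gm28035 measured 1.15, 1.83 and 3.53 TPM in Saline and 4.93, 10.21 and 6.43 in CDDP hearts, and its log2 fold change of 1.39 (SE 0.33) passed (limma adjusted p = 0.0154). This gene was looked up after its overlap was found. The sum of both was 15.28, 21.34 and 20.12 TPM in Saline and 23.30, 35.99 and 28.33 in CDDP hearts, and the 2 groups did not overlap, as was the case for 32.0% of all tested genes. In STING-/- hearts Gm28035 was 5.03, 2.37 and 2.44 TPM and in STING-/-+CDDP hearts 9.02, 5.78 and 6.37, a log2 fold change of 0.95 that did not pass (limma adjusted p = 0.225). The sums there overlapped, at 22.91, 23.93 and 19.67 TPM in STING-/- and 27.44, 27.48 and 21.60 in STING-/-+CDDP hearts.

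Lrrc8d, the subunit linked to passage of platinum drugs, measured 25.26, 26.52 and 16.62 TPM in Saline and 74.13, 61.76 and 38.89 in CDDP hearts. In STING-/- hearts it was 30.50, 3.65 and 10.79 TPM, and in STING-/-+CDDP hearts 33.46, 6.75 and 10.38. The CDDP hearts stood above all others, and the STING-/- hearts ran from 3.65 to 30.50 TPM among themselves. Of all tested genes, 32.0% had groups without overlap in CDDP against Saline and 22.7% in STING-/-+CDDP against CDDP. The share with CDDP hearts apart from all other hearts was not computed. The standard deviation of Lrrc8d within groups was 0.94 on the log2 scale, larger than that of 97.3% of tested genes, whose median was 0.26. The log2 fold change of CDDP against Saline was 1.29 (SE 0.64, interval -0.11 to 2.70, limma adjusted p = 0.182). A fit to these 2 groups alone, where the STING-/- hearts no longer enter the spread, gave the same fold change and an adjusted p of 0.0410. That fit called 913 genes in all. Among STING-/- mice the change with cisplatin was 0.27 (interval -1.14 to 1.68, limma adjusted p = 0.892). The interaction was -1.02 (SE 0.91, limma adjusted p = 0.685).

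Within hearts, the ratio of Lrrc8d to Lrrc8a was 1.38 ± 0.39 in Saline, 2.74 ± 1.17 in CDDP, 0.83 ± 0.79 in STING-/- and 0.94 ± 0.78 in STING-/-+CDDP hearts (SD, n = 3). The CDDP range, 1.78 to 4.04, overlapped that of Saline, 1.00 to 1.79. Lrrc8d has 10 annotated transcripts of 366 to 5736 bases, and which of them carried the TPM was not analysed here. Its antisense neighbour Lrrc8dos, which shares 218 exonic bases with it, was listed at 0 in every heart.

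The genotype changed no gene of the list past the threshold. Under cisplatin, STING-/-+CDDP against CDDP, 0 of 9 genes passed by limma while 1.22% of all tested genes did. The count at an unadjusted p under 0.05 was 2 of 9, Lrrc8d and Atox1, against 2737 of the 13815 tested genes. Lrrc8d was lower by every pairing of hearts, at 33.46 TPM or less against 38.89 or more, with a log2 fold change of -1.98 (SE 0.64, interval -3.39 to -0.57, unadjusted p = 0.00992, limma adjusted p = 0.132). For Atox1 the log2 difference was -0.35 (SE 0.16, unadjusted p = 0.0466, limma adjusted p = 0.244), with overlapping hearts. Slc22a3 was also lower in every STING-/-+CDDP heart than in any CDDP heart, by -0.32 (limma adjusted p = 0.350). Groups without overlap were found for 2 of the 9 genes here, against 22.7% of all tested genes. For CDDP against Saline the number was also 2, against 32.0%. For STING-/-+CDDP against STING-/- it was 1, against 24.2%.

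In STING-/-+CDDP against STING-/-, 0 of 9 genes passed by limma while 0.934% of all tested genes did. Of the 9, 1 had an unadjusted p under 0.05, Slc22a3, against 1860 of the 13815 tested genes. With arrayWeights, Slc22a3 passed here at -0.78 (adjusted p = 0.0165), where 613 of the 13815 tested genes passed. In the main fit, 8 of the 9 fold changes were below 0, with a median of -0.31 on the log2 scale against -0.11 over all tested genes. The share of all tested genes below 0 was not computed. With the median of ratios the median over all tested genes was -0.0062, and Atox1 (0.020) and Lrrc8a (0.076) were above 0. In STING-/- against Saline, 0 of 9 passed (0.0724% of all tested genes), and 0 had groups that did not overlap (7.64% of all tested genes). An unadjusted p under 0.05 was found for 0 of 9, against 510 of the 13815 tested genes. Fold changes in that comparison ran from -0.96 for Lrrc8d to 0.45 for Atp7a. The interaction of cisplatin and genotype called 0 of 9 (0.00724% of all tested genes). It had 0 of 9 at an unadjusted p under 0.05, against 1615 of the 13815 tested genes. Averaged over both treatments, a contrast added after the data were seen, the genotype called 0 of 9 (0.181% of all tested genes), with unadjusted p under 0.05 for Lrrc8d at -1.47 (adjusted p = 0.244) and Atox1 at -0.26 (adjusted p = 0.377). Over all 13815 tested genes, 1663 had an unadjusted p under 0.05 in this averaged contrast.

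Around these carriers, other genes that handle copper, drugs and glutathione changed with cisplatin in wild-type hearts, as the plot of lists shows. Of 28 tested genes of copper handling, 6 rose and 7 fell in CDDP against Saline, where 8.52% of all tested genes rose and 10.4% fell, with a median log2 fold change of 0.12 against -0.0032 for all tested genes. The metallothioneins Mt2 and Mt1, which bind copper, zinc and platinum, led the rise. Mt1 went from 185.97, 770.99 and 641.10 TPM in Saline to 5405.20, 2583.45 and 3116.48 in CDDP hearts (log2 fold change 2.96, SE 0.44, limma adjusted p = 0.00179). Mt2 went from 24.11, 308.17 and 173.60 to 4223.48, 769.45 and 1346.79 TPM (3.89, SE 0.81, limma adjusted p = 0.00803). Lox, a copper-dependent enzyme that cross-links collagen, rose by 1.59, and Cp, which encodes the copper-carrying ferroxidase ceruloplasmin, by 1.12. Cmc2 and Cox11, assembly factors of the copper enzyme cytochrome c oxidase, moved the other way and fell by 1.43 and 1.14 on the log2 scale. They were named for the size of their changes among passing genes. The other assembly factors of the list are not described here.

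Of 16 tested carriers of organic cations, nucleosides and drugs, 2 rose and 3 fell, beside the same 8.52% and 10.4% of all tested genes. The drug pump Abcb1b rose by 1.40 on the log2 scale (SE 0.38, limma adjusted p = 0.0266), from 3.19, 10.88 and 6.85 to 18.83, 14.92 and 21.64 TPM, and Tmem205 by 0.74. Abcc9 fell by 1.07, the nucleoside carrier Slc29a2 by 0.74 and the carnitine carrier Slc22a5, a relative of Slc22a3, by 0.58. Abcc9 is also in the pericyte list. Of 2 tested anion channel subunits beside the list, Lrrc8b and Lrrc8c, 0 passed. Of 15 tested genes of glutathione synthesis and conjugation, 7 rose and 0 fell, where 8.52% of all tested genes rose and 10.4% fell. They included the transferase Mgst1, up by 2.28 on the log2 scale (SE 0.28, limma adjusted p = 8.02e-04), and the synthesis enzymes Gclm (1.43), Gclc (1.13) and Gss (1.09).

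Calls in the other comparisons are given beside those over all tested genes. In STING-/-+CDDP against STING-/-, where 0.934% of all tested genes passed, 0 of the 28, 16, 2 and 15 genes did. At an unadjusted p under 0.05 there were 7, 3, 0 and 6 of them, against 1860 of the 13815 tested genes. In STING-/-+CDDP against CDDP the one that passed was Slc22a5, higher by 0.87 (limma adjusted p = 0.0452), where 1.22% of all tested genes passed. In the cisplatin effect averaged over both genotypes, where 19.8% of all tested genes passed, 5 copper handling genes rose and 5 fell, 2 carriers rose and 1 fell, 7 glutathione genes rose and 0 fell, and 0 channel subunits passed. The interaction called 0 genes in any list and 1 of the 13815 tested genes (0.00724%). At an unadjusted p under 0.05 it had 10 of 28 copper handling, 1 of 16 carrier, 0 of 2 channel and 4 of 15 glutathione genes. Over all tested genes that number was 1615. By the adjusted p, the changes with cisplatin are not shown to differ between the genotypes.

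**Figure D3:**
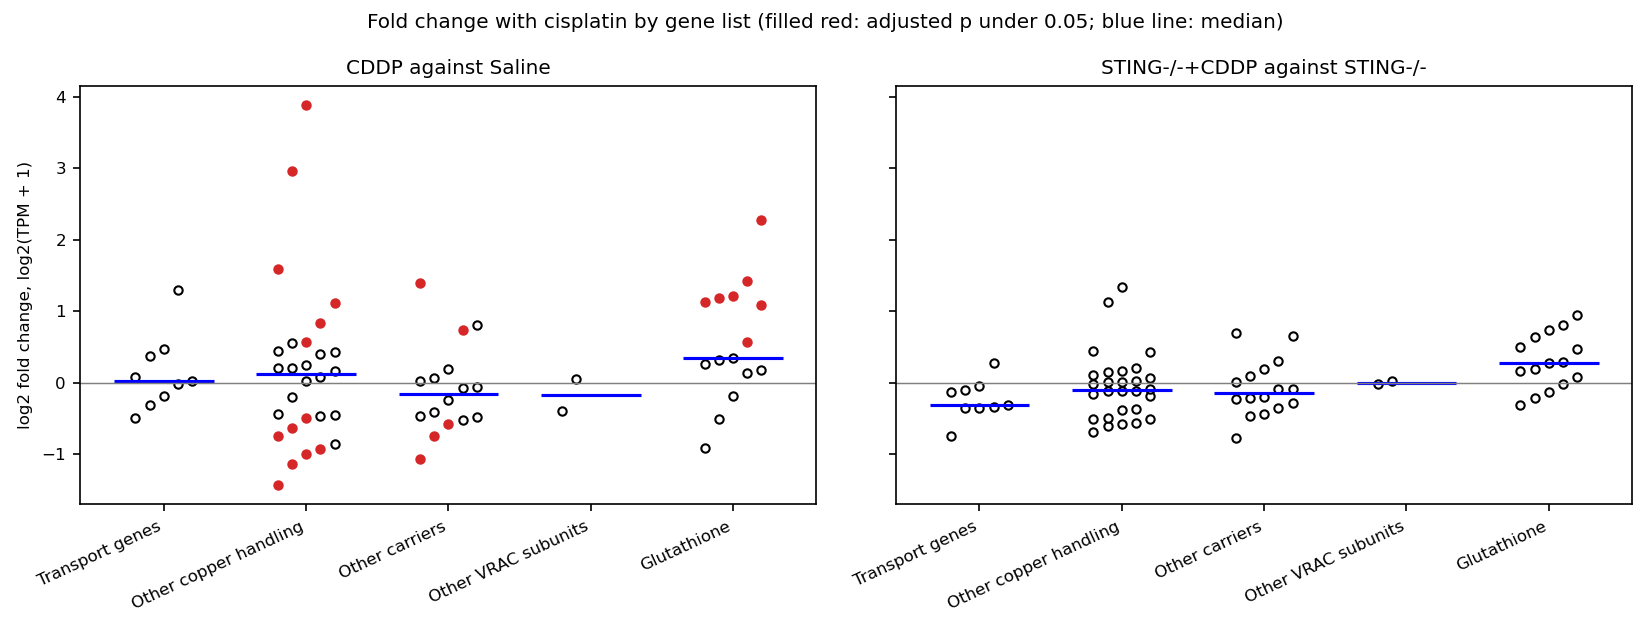
Log2 fold change on the log2(TPM + 1) scale (vertical axis) with cisplatin in wild-type hearts (left) and STING-/- hearts (right), each point a gene of the list named below it, filled red where the limma adjusted p was under 0.05, with the median as a blue line. The transport genes have 0 filled points on either side, and the glutathione list has 7 on the left, all above 0.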

How the data were processed

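RNA-seq of 12 hearts, 3 per group by genotype and treatment in the labels, was used. The deposited values are the authors' TPM for each gene in each heart, given to 2 decimals. The submitters' processing notes name fastp, HISAT, RSEM and GRCm38.p5, with tool versions not given in the sources used here. The authors' group means were left out. TPM give no depth, so no count test or counting interval was possible.

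Values were taken as log2(TPM + 1) and fitted with limma 3.58.1 in R 4.3.3 (a coefficient per group, eBayes with a trend, 8 residual degrees of freedom, two-sided, Benjamini-Hochberg over 13815 genes, threshold 0.05). Limma p-values rest on the spread among hearts within groups, pooled over all 4 groups of 3 hearts and moderated across genes by eBayes. The transport genes, pathway lists and tests were chosen with earlier results of these data known, and the averaged contrasts after seeing them. All 10 transport genes were named, up to 6 passing genes per other list, marker lists as sums, and the 3 genes most like any transport gene past the threshold. The fit was first tested on simulated data. Alternatives were pseudocount 0.1, no filter or TPM 5, 3 scalings, no trend, arrayWeights, fewer groups, the replicate block and leaving out each heart.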

Additional observations from a re-analysis of the deposited data

How the results depend on the processing

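Of 708 values of the transport genes under alternatives, 671 kept their direction and side of the threshold, 34 turned sign, none of those past the threshold, and 3 came to pass it. Many of the 708 could not turn sign, so the 671 overstates how stable the directions were. The filters, no trend, fewer groups, the replicate block and leaving out a heart outside the comparison keep the fold change by construction. Only the adjusted p could move there. The number of genes called stayed at 0 in 106 of 109 refits of the 5 comparisons. It became 1 in CDDP against Saline with the compared groups only (Lrrc8d) and with arrayWeights (Lrrc8a), and 1 in STING-/-+CDDP against STING-/- with arrayWeights (Slc22a3). In the averaged cisplatin effect the number of transport genes called became 0 with the filter at TPM 5, which removed Slc22a3. Slc22a3 otherwise passed in 20 of 20 alternatives there (-0.87 to -0.50, adjusted p 0.00513 to 0.0327).

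With arrayWeights, CDDP against Saline turned to -0.16 for Slc31a1, -0.011 for Atox1 and 0.15 for Slc47a1, and the interaction of Slc31a2 to -0.12. In STING-/-+CDDP against STING-/-, Atox1 turned to 0.020 with the median of ratios, and Lrrc8a to 0.076 with it, 0.071 with quantiles and 0.062 with arrayWeights. Between those groups the median over all tested genes went from -0.11 to -0.0062 with the median of ratios and to 0.015 with quantiles, which scale that median towards 0. Why arrayWeights turned values was not tested. Leaving out single hearts gave, in CDDP against Saline, -0.017 to 0.22 for Atox1, -0.10 to 0.19 for Slc31a1 and -0.20 to 0.23 for Slc47a1. In STING-/-+CDDP against STING-/- it gave -0.16 to 0.013 for Atox1, -0.16 to 0.084 for Lrrc8a and -0.41 to 0.97 for Lrrc8d. Slc31a2 ran from -0.16 to 0.16 in STING-/-+CDDP against CDDP and from -0.18 to 0.17 in the interaction, and Atp7a from -0.057 to 0.17 in STING-/- averaged over both treatments.

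Hearts with the same number were different animals, and their deviations did not go together (18 pairs, correlation -0.33 to 0.26, 4 over 0.1). With the replicate block the 5 comparisons called 0 transport genes, as without it. Each number occurs once per group, so the block cannot change a fold change, and the -0.61 of Slc22a3 in the averaged effect was bound to stay. With 3 hearts per group and unknown depth, the intervals set what could be seen, and low genes such as Atp7b could not be fitted.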
